A study of Canis lupus familiaris with 16 samples.

Results

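The genes of the transforming growth factor beta (TGF-beta) and bone morphogenetic protein (BMP) pathway were described in RNA-seq counts of 16 canine soft tissue sarcomas, and 60 of the 41818 genes counted were chosen by symbol. The symbols covered the ligands of both branches (TGFB, BMP, GDF and INHB genes), their receptors (TGFBR, BMPR and ACVR genes), the SMADs, the latent TGF-beta binding proteins (LTBP1 to LTBP4), secreted antagonists such as GREM1, NOG, CHRD and FST, and the target genes ID1 to ID4. The study asked whether expression separates sarcoma types that look alike under the microscope, and each tumor here is a formalin-fixed, paraffin-embedded piece from a pet dog. The groups are its molecular identities: 4 fibrosarcomas (FS; S1-2, S1-11, S1-12 and S2-6), 6 peripheral nerve sheath tumors (PNST; S1-3, S1-4, S1-5, S1-9, S1-10 and S2-7) and 6 perivascular wall tumors (PWT; S1-7, S2-3, S2-4, S2-8, S2-9 and S2-11). The dogs with FS were 9 to 13 years old, those with PNST 8 to 13 and those with PWT 2 to 14, and breeds differed. S1-10 was a PWT and S2-8 an FS by histology. The study moved both by their expression, so the groups are not independent of the data compared here. S1-4 and S1-5 carry the same entries for dog and tumor and may come from 1 dog. Of the 120 pairs of tumors they had the highest Spearman correlation over genes (0.923), and their chi-square statistic per degree of freedom (12.1) was among the lowest, with 8.47 the lowest of the other pairs. Whether they are from different dogs cannot be told from these values. They were kept as 2 samples, and with their counts summed, the call of LTBP2 in FS against PNST was lost (edgeR adjusted p = 0.0673).

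TGF-beta and BMP ligands are secreted as dimers and bind pairs of type I and type II receptor kinases. Receptors of the TGF-beta and activin branch phosphorylate SMAD2 and SMAD3, and those of the BMP branch SMAD1, SMAD5 and SMAD9; both kinds then enter the nucleus with SMAD4. TGF-beta itself is held inactive in the matrix by LTBPs, BMPs are blocked outside the cell by antagonists such as gremlin and noggin, and SMAD6 and SMAD7 shut the signal off inside it. In mesenchymal tissue the TGF-beta branch is known for driving collagen and contractile genes, and the BMP branch for bone and cartilage formation and for inducing the ID genes.

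Gene counts per tumor ran from 507728 in S1-12 up to 4311876 in S1-3, and the 60 genes took 0.300% to 0.524% of them. Levels are given as CPM (counts per 10 to the power of 6 on the TMM scaled total of each tumor). At these depths 1 count was worth 0.284 CPM in S1-3 and 1.84 CPM in S1-12, so a low level in S1-12 is the least precise. Of the 60 genes, 42 were tested because 4 or more tumors held 10 or more counts. BMP2, BMP7 and SMAD9 reached 10 counts in fewer than 4 of the 12 tumors that are not FS, so they entered the test through FS. The 18 others were not tested. They included 12 of 18 BMP and GDF ligands (BMP3, BMP5, BMP10, BMP15, GDF1, GDF2, GDF3, GDF5, GDF6, GDF7, GDF10 and GDF15), the inhibin chains INHBC and INHBE, the receptors ACVR1C and BMPR1B, and the antagonist NOG. Of the 18, 9 had at most 12 counts over all 16 tumors. BMP3, whose protein opposes other BMPs, had 117 counts, of which 96 were in S1-2. A pair of symbols matched a BMP name without encoding a ligand. BMP1 is a protease that trims procollagens, and BMP2K is a kinase named for its induction by BMP2.

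A gene was called when edgeR's quasi-likelihood test gave an adjusted p under 0.05, over all 15408 genes tested, and an absolute log2 fold change above 1. In FS against PNST and PWT pooled, 9 of the 42 genes (21.4%) were higher, against 5.78% of all genes tested, and 1 (2.38%) was lower, against 3.68% of all genes. Counting no gene that needed FS to enter the test, 7 of 39 genes (17.9%) were higher, against 5.08% of all such genes. The genes that rose were GDF11, BMP7, INHBB, BMPR2, SMAD7, SMAD9, LTBP1, LTBP2 and GREM1, and TGFBR3 fell. The median log2 fold change of the 42 genes was 0.36, against 0.00 over all genes tested. The genes that rose thus hold BMP, GDF and activin ligands, a receptor, the BMP-branch SMAD9, the inhibitory SMAD7, LTBP1 and LTBP2, and an antagonist. In bulk tumors, fewer cells of a type and less RNA per cell cannot be told apart. With tumors grouped by histology, 3 of the 10 calls remained, those of GDF11, SMAD9 and GREM1. The share of all genes called in that grouping is not given here.

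The pairwise comparisons share the 4 FS, so their calls are given side by side. FS against PNST gave 5 genes higher (GDF11, SMAD9, GREM1, BMPR2 and LTBP2), with 4.15% of all genes called higher, and 2 lower (TGFB1 and TGFBR3), with 2.98% of all genes called lower. FS against PWT gave 8 genes higher (GDF11, BMP7, INHBB, SMAD7, SMAD9, LTBP1, LTBP2 and GREM1), with 6.15% of all genes called higher, and 1 lower (TGFBR3), with 5.05% of all genes called lower. SMAD9 in both comparisons and BMP7 against PWT entered the test through FS. Their calls are a description, and the counts of genes higher include them. With tumors grouped by histology, all 7 calls against PNST and all 9 against PWT were lost. The shares of all genes called in that grouping and in the alternatives below are not given here. A loss particular to these genes thus cannot be told from a general one. When the name prefix (S1 or S2) was added to the model, 3 calls of FS against PWT remained (GDF11, SMAD9 and GREM1). Over the alternatives, S1 tumors alone included, the lowest log2 fold changes against PWT were 2.07 for GDF11, 3.91 for SMAD9 and 2.67 for GREM1. With S1 tumors alone, which include 1 PWT, edgeR called 0. Against PNST, the LTBP2 call held in 14 of 26 alternatives and that of TGFBR3 in 15 of 26. Against PWT, BMP7 held in 14 of 25, LTBP1 in 15 of 26, INHBB in 17 of 26 and TGFBR3 in 18 of 26. GREM1 was not past the threshold without S1-2 in either (edgeR adjusted p = 0.0580 against PNST and 0.0714 against PWT).

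**Figure D1:**
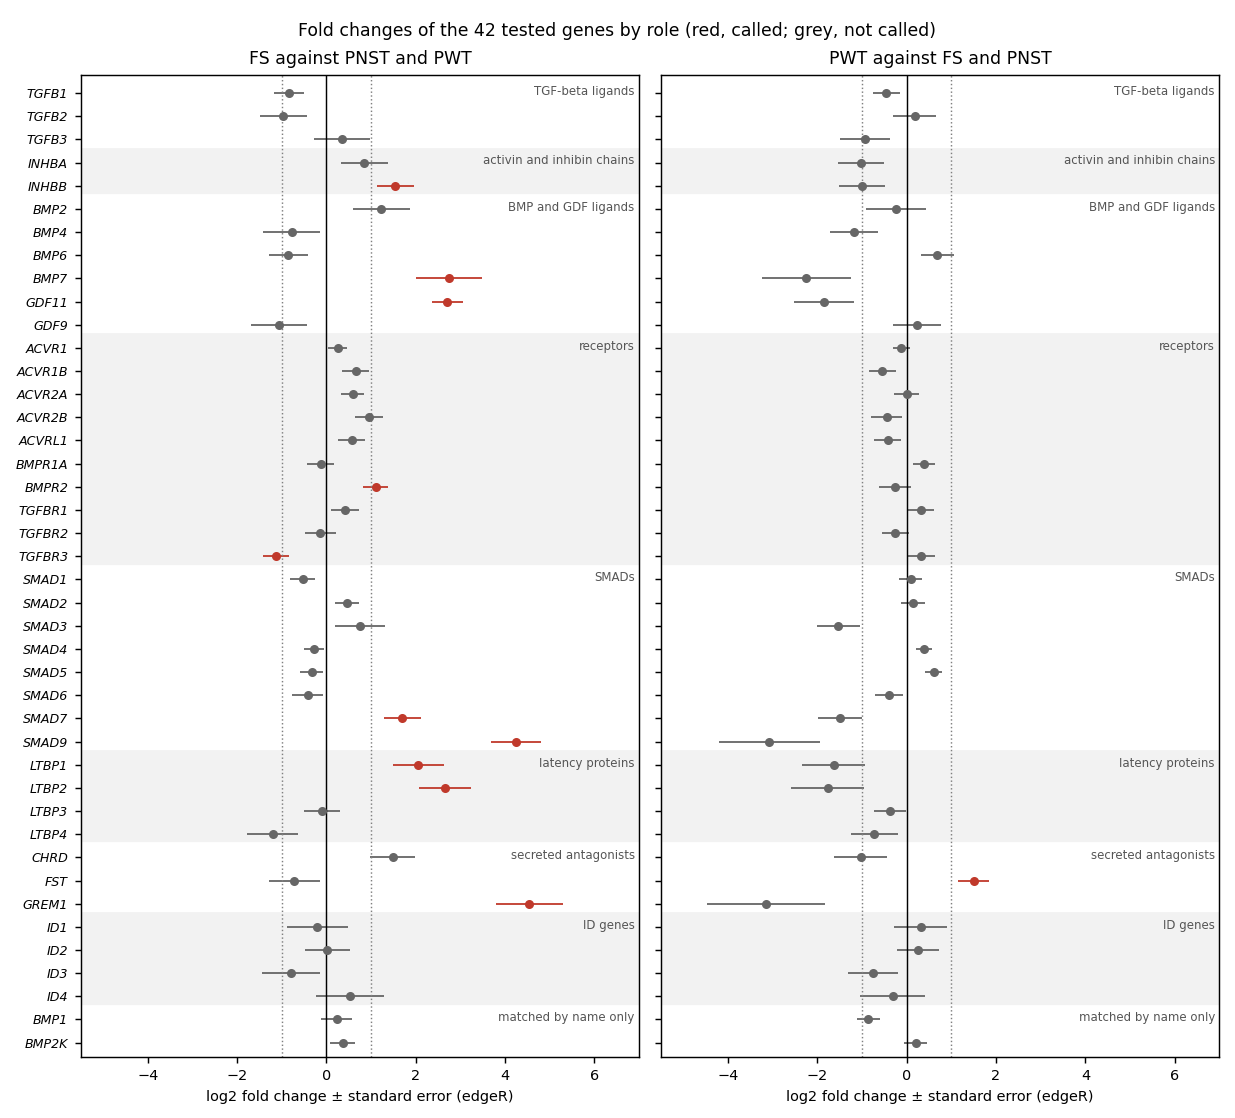
Log2 fold changes (x axis, with standard errors as bars) of the 42 tested genes, ordered by role, for FS against both other types (left) and PWT against both other types (right); dotted lines mark a log2 fold change of 1 in each direction. In FS, 10 red points are called, from TGFBR3 at -1.13 to GREM1 at 4.55, and in PWT the 1 called gene is FST at 1.50.

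Among the BMP and GDF ligands, GDF11, an activin-like ligand known from patterning of the body axis, had 86.8 CPM in S1-2, 32.4 in S1-11, 25.8 in S1-12 and 13.8 in S2-6. The PNST ranged from 3.36 to 11.0 CPM (median 6.47) and the PWT from 3.74 to 7.65 CPM (median 5.24). All 4 FS thus lay above all 12 other tumors, but S2-6 was close to the highest PNST. S2-6 rested on 29 counts (95% Poisson interval 9.23 to 19.8 CPM) and S1-4 on 35 counts (7.66 to 15.3 CPM), and these intervals, which cover counting error only, overlapped. The log2 fold change against both other types was 2.71 (SE 0.35, edgeR adjusted p = 0.000228), and GDF11 ranked 21 of 15408 genes by p. Over 26 alternatives this log2 fold change ran from 1.97 to 3.00, and the call held in each. GDF11 and SMAD9 were the 2 members with all FS above all other tumors, a pattern that 1.56% of the genes tested showed (SMAD9 entered the test through FS), and 0 members had all FS below all others, against 1.64% of genes.

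BMP7, a BMP of kidney and bone development, had 18.6 CPM in S1-2, 28.5 in S1-11, 5.52 in S1-12 and 2.85 in S2-6. Its level was 0 to 6.29 CPM in PNST (median 1.64) and 0 to 4.85 CPM in PWT (median 0.647). S1-2 and S1-11 lay above all tumors of the other types, while S1-12 and S2-6 lay among them. The log2 fold change of BMP7 was 2.74 (SE 0.74, edgeR adjusted p = 0.0230). BMP7 entered the test through FS, where it was high, so this p and those below are given as a description. The call was lost without S1-2 (adjusted p = 0.0577) or S1-11 (0.140), with the prefix as a term (0.0584), with S1 tumors alone (0.0741), with S1-10 and S2-8 left out (0.0560) and with histology groups (0.147). Over 25 alternatives the adjusted p ran from 0.0120 to 0.147.

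BMP6, whose known roles include the control of iron through hepcidin, was the BMP or GDF ligand with the highest CPM, with 27.6 CPM in S1-2, 70.2 in S1-11, 58.9 in S1-12 and 21.4 in S2-6. It ranged from 27.7 to 123 CPM in PNST (median 64.5) and from 52.5 to 138 CPM in PWT (median 93.7). FS overlapped both other types, and the log2 fold change of -0.85 did not pass the test (edgeR adjusted p = 0.244). BMP2 and BMP4, close relatives used in bone and limb formation, had log2 fold changes of 1.23 and -0.78 in FS that did not pass it either (edgeR adjusted p = 0.230 and 0.489). BMP4 was at 3.70 to 35.5 CPM in PNST and at 2.28 to 12.3 CPM in PWT. GDF9, an oocyte factor, was at 0 to 6.25 CPM over the 3 types.

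The activin chains INHBA and INHBB form activins as dimers and inhibins with INHA. INHBB had 10.0 CPM in S1-2, 19.7 in S1-11, 12.9 in S1-12 and 29.5 in S2-6, against 1.89 to 10.5 CPM in PNST (median 7.69) and 1.50 to 9.75 CPM in PWT (median 5.69). S1-2 lay inside the PNST range and the other FS above it. INHBB rose by a log2 fold change of 1.54 (SE 0.42, edgeR adjusted p = 0.0233), and the call was lost without S1-11 (adjusted p = 0.0709) or S2-6 (0.124), with S1 tumors alone (0.243) and with S1-10 and S2-8 left out (0.0589), within a range of 0.00759 to 0.243 over 26 alternatives. INHBA, the chain with the higher CPM, had 44.1 CPM in S1-2, 235 in S1-11, 79.2 in S1-12 and 163 in S2-6. Its PNST ran from 20.7 to 260.0 CPM (median 69.0) and its PWT from 21.3 to 94.8 CPM (median 41.0), so the types overlapped. Its log2 fold change of 0.85 in FS did not pass the test (edgeR adjusted p = 0.344).

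None of the 3 TGF-beta ligands was called in FS against both other types. TGFB1, the isoform best known from fibrosis and immune control, had 18.3 CPM in S1-2, 14.8 in S1-11, 29.5 in S1-12 and 18.1 in S2-6, 36.4 to 57.9 CPM in PNST (median 43.1) and 12.7 to 36.0 CPM in PWT (median 24.7). All 6 PNST thus lay above all 4 FS, and also above all 6 PWT, but the lowest PNST (36.4 CPM) was close to the highest PWT (36.0 CPM). Counting error was not set against this margin, and the share of all genes with this order was not counted. Against PNST, TGFB1 was lower in FS by a log2 fold change of -1.18 (SE 0.29, edgeR adjusted p = 0.0179), a call that was lost without S1-11 (adjusted p = 0.0575, range 0.000834 to 0.217 over 26 alternatives). It was also lost with histology groups, with S1 tumors alone and with 5 tumors with keratinocyte markers left out. PNST against both other types gave TGFB1 a log2 fold change of 0.94, just under the fold threshold, with an edgeR adjusted p of 0.132. By DESeq2 the log2 fold change was also 0.94, with an adjusted p of 0.00668. PNST against PWT gave 0.80 (edgeR adjusted p = 0.110, DESeq2 adjusted p = 0.0263), again under the fold threshold. TGFB3, the isoform with the highest CPM, split the FS. It had 33.7 CPM in S1-2 and 43.7 in S2-6, below the PNST, but 495 in S1-11 and 466 in S1-12, above all PNST and PWT, which spanned 61.2 to 432 CPM (median 296) and 52.5 to 247 CPM (median 109). TGFB2 had 122 CPM in S1-2, 24.1 in S1-11, 27.6 in S1-12 and 8.08 in S2-6, while PNST held 47.1 to 156 CPM and PWT 44.9 to 138 CPM. Of the FS, 3 thus lay below all 12 other tumors and S1-2 among them, and the log2 fold change of -0.97 did not pass the test (edgeR adjusted p = 0.266).

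**Figure D2:**
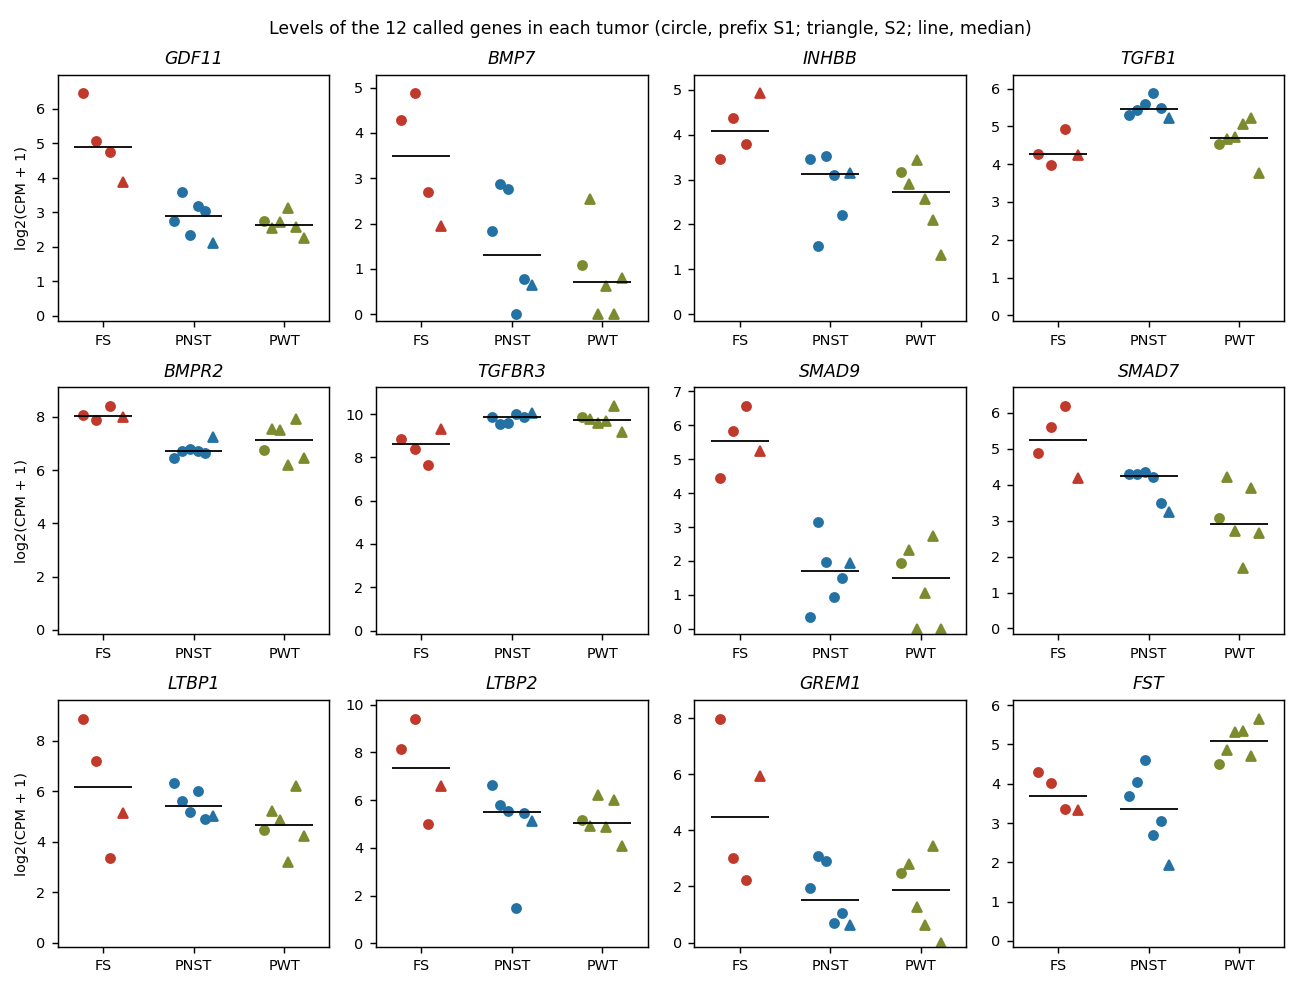
Levels (y axis, log2 of CPM plus 1) of the 12 genes called in any of the 6 comparisons, with 1 point per tumor in FS, PNST and PWT; circles are tumors with the prefix S1, triangles those with S2, and lines mark group medians. All 4 FS points lie above all others for GDF11 and SMAD9, whereas for GREM1, LTBP1 and LTBP2 some FS lie far above the rest and others among them.

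Of the receptors, 10 of 12 were tested, and 1 rose and 1 fell in FS. BMPR2, the type II receptor of the BMP branch, had 264 CPM in S1-2, 237 in S1-11, 337 in S1-12 and 255 in S2-6. The PNST lay between 87.0 and 151 CPM (median 104) and the PWT between 71.1 and 239 CPM (median 145). FS was above all PNST, and the PWT S2-9 at 239 CPM reached the lowest FS. BMPR2 rose by a log2 fold change of 1.10 against both other types (SE 0.27, edgeR adjusted p = 0.0141) and 1.32 against PNST (SE 0.30, edgeR adjusted p = 0.0133). Without S1-12 the first was 0.99, under the fold threshold. The first call was also lost with histology groups and with 5 tumors with keratinocyte markers left out. Its adjusted p ran from 0.00263 to 0.193 over 26 alternatives. The call against PNST was lost with those same groups and tumors (adjusted p 0.000622 to 0.254 over 26 alternatives).

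TGFBR3, or betaglycan, is a co-receptor without a kinase that presents TGF-beta2 and inhibin, and it had the highest CPM of the receptors. Its level was 460.4 CPM in S1-2, 328 in S1-11, 201 in S1-12 and 642 in S2-6. In PNST it was 744 to 1072 CPM (median 924), above all FS, and in PWT 578 to 1317 CPM (median 854). Of the PWT, S2-11 at 578 CPM lay below S2-6, which is the overlap between the types. TGFBR3 fell by 1.13 on the log2 scale in FS (SE 0.29, edgeR adjusted p = 0.0187), a call lost without S1-11 (adjusted p = 0.0671) and without S1-12 (0.0541), within 0.000420 to 0.173 over 26 alternatives. The other 8 receptors had log2 fold changes in FS between -0.13 (TGFBR2) and 0.96 (ACVR2B), and 0 of them passed the test. ACVR2B, a type II receptor for activins and GDF11, had 10.4 to 26.6 CPM in FS, 7.23 to 13.4 CPM in PNST and 3.74 to 12.1 CPM in PWT (edgeR adjusted p = 0.0568).

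All 8 SMADs were tested. SMAD9, also called SMAD8, is an effector of the BMP branch and a known target of it. It had 20.8 CPM in S1-2, 55.4 in S1-11, 93.9 in S1-12 and 36.6 in S2-6. In PNST it ranged from 0.284 to 7.86 CPM (median 2.31) and in PWT from 0 to 5.72 CPM (median 1.97). FS and the other types did not overlap, and S1-12, the tumor with the fewest reads, had 51 counts of SMAD9 (95% Poisson interval 69.9 to 123 CPM), while the PWT S2-4 and S2-11 had 0, which allows up to 5.14 and 2.76 CPM by the same interval. The log2 fold change was 4.25 (SE 0.56, edgeR adjusted p = 0.000238). SMAD9 entered the test through FS, where it was high, so this p is given as a description. The other effectors of the same branch were not called, with log2 fold changes of -0.53 for SMAD1 and -0.33 for SMAD5 (edgeR adjusted p = 0.254 and 0.470).

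SMAD7, an inhibitor of both branches that TGF-beta induces, had 28.3 CPM in S1-2, 47.2 in S1-11, 71.8 in S1-12 and 17.1 in S2-6. It ranged from 8.41 to 19.3 CPM in PNST (median 18.0) and from 2.19 to 17.4 CPM in PWT (median 6.49). The 3 FS with the prefix S1 stood above all other tumors, and S2-6 did not. The log2 fold change was 1.70 against both other types (SE 0.42, edgeR adjusted p = 0.0141) and 2.18 against PWT (SE 0.48, edgeR adjusted p = 0.00764). Without S1-11 or S1-12 the first adjusted p was 0.0560 or 0.0714, within 0.00379 to 0.183 over 26 alternatives. SMAD6, the inhibitor of the BMP branch, had a log2 fold change of -0.42 that did not pass the test (edgeR adjusted p = 0.499).

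SMAD4, the common partner and the SMAD with the highest median CPM over all tumors, had 103 CPM in S1-2, 131 in S1-11, 223 in S1-12 and 136 in S2-6. It lay between 123 and 185 CPM in PNST (median 158) and between 183 and 224 CPM in PWT (median 195), with S1-12 the 1 FS inside the PWT range. Its log2 fold change of -0.28 in FS did not pass the test (edgeR adjusted p = 0.463). SMAD2 and SMAD3, the effectors of the TGF-beta branch, had 0.46 and 0.75, also short of it (edgeR adjusted p = 0.311 and 0.432). SMAD3 was at 16.1 to 52.6 CPM in FS, 7.85 to 63.1 CPM in PNST and 2.99 to 19.5 CPM in PWT.

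LTBP1 binds latent TGF-beta and fixes it to the matrix. Its CPM was 467 in S1-2, 145 in S1-11, 9.21 in S1-12 and 34.2 in S2-6, against 29.4 to 80.4 in PNST (median 41.9) and 8.20 to 73.6 in PWT (median 24.5). S1-2 and S1-11 exceeded all other tumors, while S1-12 lay below all PNST. The log2 fold change of 2.06 (SE 0.58, edgeR adjusted p = 0.0283) fell to 0.71 without S1-2 (adjusted p = 0.495), and the adjusted p was 0.0601 without S1-11, within 0.00831 to 0.495 over 26 alternatives. The call was also lost with the prefix as a term (0.0925), with S1 tumors alone (0.104), with S1-10 and S2-8 left out (0.0617) and with histology groups (0.193).

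LTBP2, which belongs to the elastic fibre and does not bind latent TGF-beta, had 281 CPM in S1-2, 678 in S1-11, 31.3 in S1-12 and 94.5 in S2-6. The PNST ranged from 1.81 (S1-9) to 98.1 CPM (median 44.2) and the PWT from 15.7 to 72.5 CPM (median 31.9). The same 2 FS stood above the rest as for LTBP1, with S1-11 now the highest. LTBP2 had a log2 fold change of 2.65 (SE 0.59, edgeR adjusted p = 0.00720). Without S1-11 this was 1.66 (adjusted p = 0.108, within 0.00108 to 0.108 over 26 alternatives).

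LTBP4, the LTBP with the highest CPM and a binder of TGF-beta1, had 41.2 CPM in S1-2, 657 in S1-11, 238 in S1-12 and 114 in S2-6. It was at 554 to 1229 CPM in PNST (median 819.7) and 204 to 508 CPM in PWT (median 386), so that all PNST lay above all PWT. The 95% Poisson intervals of S2-7 (520 to 589 CPM) and S2-8 (476 to 542 CPM) overlapped. In PNST against PWT the log2 fold change of 1.18 did not pass the test (edgeR adjusted p = 0.181). Against both other types it was 1.36 (edgeR adjusted p = 0.185), a comparison where edgeR called 0 of all genes. The FS S1-11 lay inside the PNST range. For FS against PNST, edgeR gave -1.67 (adjusted p = 0.0712), not called, and DESeq2 gave -1.64 (adjusted p = 0.0238), called. For LTBP3, FS gave a log2 fold change of -0.10 (edgeR adjusted p = 0.913).

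GREM1, or gremlin, a secreted antagonist that binds BMP2, BMP4 and BMP7, had the highest log2 fold change of the 42 genes. It had 251 CPM in S1-2 and 60.3 in S2-6, but 7.13 in S1-11 and 3.68 in S1-12, the latter from 2 counts. In PNST it ranged from 0.561 to 7.54 CPM (median 1.96) and in PWT from 0 to 9.81 CPM (median 2.98). A pair of FS was therefore far above the other types and a pair lay among them. The log2 fold change of 4.55 (SE 0.75, edgeR adjusted p = 0.00110) fell to 2.80 without S1-2 (adjusted p = 0.0252, within 1.69e-05 to 0.0295 over 26 alternatives).

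FST, or follistatin, binds activins and GDF11 tightly, and it was the called gene of PWT. The PWT held 21.6 to 49.4 CPM (median 33.6). The FS held 18.6 CPM in S1-2, 15.4 in S1-11, 9.21 in S1-12 and 9.03 in S2-6, and the PNST 2.80 to 23.4 CPM (median 9.59). All PWT were above all FS, and the PNST S1-5 at 23.4 CPM was above the PWT S1-7 at 21.6 CPM. PWT against both other types gave a log2 fold change of 1.50 (SE 0.34, edgeR adjusted p = 0.0322), a call that held in 16 of 26 alternatives. No filter, histology groups, S1-10 and S2-8 left out, S1 tumors alone, and 5 tumors with keratinocyte markers left out each ended it. The call was lost without S2-3 (adjusted p = 0.0513), S2-4 (0.0780), S2-8 (0.0519) or S2-11 (0.0965), and with the prefix as a term (0.275), within 0.00336 to 0.956 over 26 alternatives. CHRD, or chordin, which holds BMPs away from their receptors, had 1.43 to 25.1 CPM in FS, 2.54 to 10.3 CPM in PNST and 0.748 to 8.36 CPM in PWT (log2 fold change 1.48 in FS, edgeR adjusted p = 0.0698).

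The ID genes encode helix-loop-helix proteins without a DNA binding domain and are textbook targets of the BMP SMADs. None of the 4 was called in any of the 6 comparisons. In FS their log2 fold changes ran from -0.79 (ID3) to 0.53 (ID4), and the smallest edgeR adjusted p was 0.484. ID3, the one with the highest CPM, had 10.8 CPM in S1-2, 15.4 in S1-11, 7.37 in S1-12 and 2.38 in S2-6, against 10.8 to 33.3 CPM in PNST (median 19.4) and 2.79 to 28.6 CPM in PWT (median 4.60). The types overlapped, and 4 of 6 PWT lay below all PNST. The SE of these log2 fold changes was 0.51 to 0.77, and that of the members called in FS ran from 0.27 (BMPR2) to 0.75 (GREM1). BMP1 and BMP2K had log2 fold changes of 0.23 and 0.36 in FS, neither past the test.

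PNST against both other types gave 0 calls among the 42 genes by edgeR, as it did among all genes (0%), while 14 members and 2415 of all genes had an unadjusted p under 0.05. DESeq2's Wald test also called 0 members there, and 1.54% of the genes it tested. PWT against both other types gave 1 gene higher (FST), against 1.41% of all genes, and 0 lower, against 0.714%. By unadjusted p under 0.05, 13 members and 3449 genes passed in PWT. DESeq2 called 5 members in PWT (FST higher and GDF11, SMAD3, SMAD7 and SMAD9 lower), against 5.02% of the genes it tested. PNST against PWT gave 0 members with edgeR, where 0.169% of all genes were called, and 8 members and 3013 genes had an unadjusted p under 0.05. FST came closest, with a log2 fold change of -1.62 (SE 0.40, edgeR adjusted p = 0.0655), and DESeq2 called it as its 1 member, against 3.38% of the genes it tested.

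The 4 FS did not share 1 profile of these genes, as the map of levels by tumor shows. S1-2 had the highest level of all 16 tumors for GDF11, GREM1 and LTBP1, together with the lowest LTBP4. S1-11 was highest for BMP7 and LTBP2, and also for TGFB3. S1-12 was highest for SMAD9, SMAD7 and BMPR2 and lowest for TGFBR3, and its LTBP1, LTBP2 and GREM1 lay within the range of the other types. S2-6 was highest for INHBB, and its GREM1 was the other high value.

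**Figure D3:**
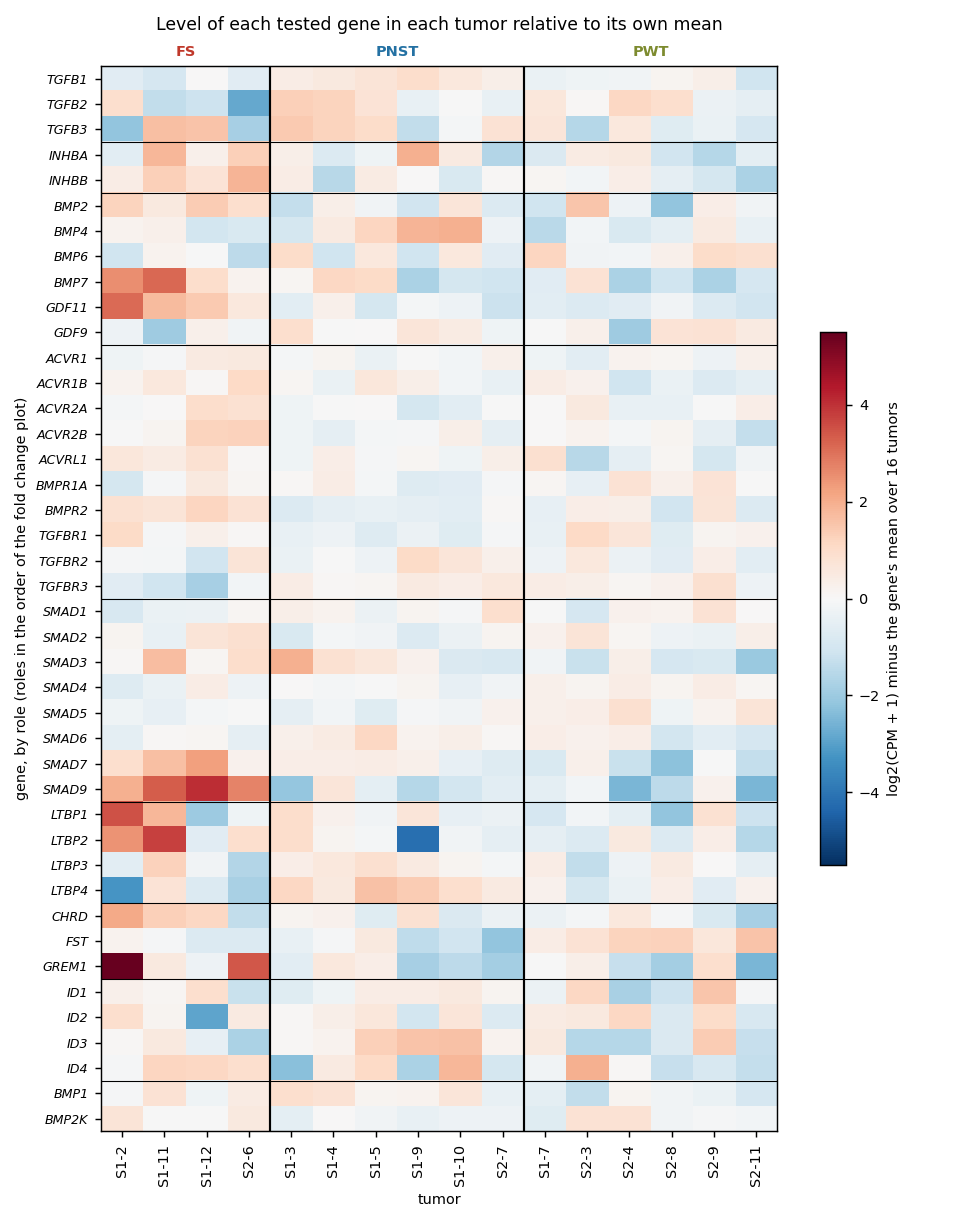
Level of each of the 42 tested genes (rows, by role) in each of the 16 tumors (columns, by type), as log2 of CPM plus 1 minus the gene's mean over the tumors; red is above the mean and blue below. SMAD9 is red in all 4 FS, while within FS the deepest reds of GREM1 are S1-2 and S2-6 and those of LTBP1 and of LTBP2 are S1-2 and S1-11.

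The tumor names begin with S1 or S2, which may mark the 2 sequencing groups of the study, and 3 of 4 FS, 5 of 6 PNST and 1 of 6 PWT begin with S1. Within S1 (3 FS, 6 others) the log2 ratio of mean CPM in FS to the others was 4.35 for SMAD9, 2.79 for GDF11, 4.51 for GREM1 and 1.45 for BMPR2. The GREM1 ratio rests on S1-2 (251 CPM), since S1-11 at 7.13 CPM and S1-12 at 3.68 CPM lay within the 0.603 to 7.54 CPM of the others of S1. With S1 tumors alone GREM1 was not called against PNST or against PWT. Within S2 (1 FS, 6 others) the log2 ratio was 4.01 for SMAD9, 1.46 for GDF11, 4.30 for GREM1 and 0.74 for BMPR2. BMPR2 held 237 to 337 CPM in the FS of S1 and 87.0 to 111 in the others of S1, with no overlap, and TGFBR3 held 201 to 460.4 against 744 to 1010, a log2 ratio of -1.42 that was -0.50 within S2. For LTBP1 the ratio was 2.16 within S1 and 0.07 within S2. LTBP2 gave 2.83 and 1.22, BMP7 2.67 and 1.35, SMAD7 1.68 and 0.96, and INHBB 1.04 and 2.39. For FST, the 5 PWT of S2 had 25.3 to 49.4 CPM, above the 2 other S2 tumors at 9.03 (S2-6) and 2.80 CPM (S2-7). The 1 PWT of S1 had 21.6 CPM, below the PNST S1-5.

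Other genes of the pathway came from fixed lists. Comparing FS with both other types, edgeR called 2 of 10 other secreted antagonists lower, against 3.68% of all genes, and 0 higher, against 5.78%. BMPER, which binds BMPs and tunes their action in vessels, had 19.4 CPM in S1-2, 18.1 in S1-11, 1.84 in S1-12 and 28.0 in S2-6, against 148 to 322 CPM in PNST (median 225) and 118 to 273 CPM in PWT (median 153). No FS came near the other types, and the log2 fold change was -3.50 (SE 0.44, edgeR adjusted p = 0.000193). CHRDL1, a chordin relative that also binds BMPs, had 44.5 CPM in S1-2, 65.2 in S1-11, 12.9 in S1-12 and 123 in S2-6, against 98.7 to 804 CPM in PNST (median 317) and 183 to 521 CPM in PWT (median 411). Its log2 fold change was -2.55 (SE 0.56, edgeR adjusted p = 0.00667). Both were also lower in FS against PNST and in FS against PWT. Among the antagonists, GREM1 thus rose in a pair of FS while BMPER was low in all 4.

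The list of latency and activation genes includes the member BMP1. Of 14 tested genes of latency and activation, FBN2 and EMILIN1 were higher in FS than in both other types, against 5.78% of all genes, and none was lower. Neither was called in FS against PNST (edgeR adjusted p = 0.0538 for FBN2 and 0.0660 for EMILIN1). FBN2, the fetal fibrillin, had 3.23 CPM in S1-2 but 849.9 in S1-11, 854 in S1-12 and 316 in S2-6, against at most 179.7 CPM in PNST and 10.3 CPM in PWT. It was the reverse of GREM1 and LTBP1 in that S1-2 was its low FS. EMILIN1, a matrix protein that holds back the processing of pro-TGF-beta, had 27.1 to 139.8 CPM in FS and 15.7 to 54.9 CPM in the others. The log2 fold changes were 4.17 for FBN2 (edgeR adjusted p = 0.0112) and 1.38 for EMILIN1 (edgeR adjusted p = 0.0173). Of 17 SMAD partners and brakes, 1 was higher in FS, a share near the 5.78% of all genes, and none was lower. This gene, NEDD4L, encodes a ubiquitin ligase that marks activated SMAD2 and SMAD3 for degradation (log2 fold change 1.61, edgeR adjusted p = 0.0131). None of 6 tested co-receptors was called in FS, and the 5 other ligands present in the table (such as MSTN and INHA) had too few counts to test.

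Of 20 tested genes that TGF-beta is known to induce, 8 were higher in FS than in both other types (TGFBI, TNC, ACTA2, COL1A1, COL3A1, LOXL2, and the members LTBP2 and SMAD7), against 5.78% of all genes. NOX4 was lower, against 3.68% of all genes. The median log2 fold change of the 20 genes was 1.25, against 0.00 over all genes. Against PNST alone 3 were higher (LOXL2, LTBP2 and TGFBI), against 4.15% of all genes, and NOX4 was lower, against 2.98%. Against PWT alone 9 were higher (the same 8 and COL1A2), against 6.15% of all genes, and NOX4 was lower, against 5.05%. TGFBI, a matrix protein named for its induction by TGF-beta, had 487 CPM in S1-2, 304 in S1-11, 18.4 in S1-12 and 41.8 in S2-6, against 8.36 to 76.0 CPM in the others, the split seen for LTBP1. Its log2 fold change was 2.75 (SE 0.60, edgeR adjusted p = 0.00689). NOX4, an oxidase induced in myofibroblasts, went the other way, with 18.3 to 25.8 CPM in FS against 35.3 to 89.2 CPM in the others (log2 fold change -1.27, SE 0.28, edgeR adjusted p = 0.00715). CCN2, a matricellular protein and known target, was not called. Of 12 tested BMP responsive genes, the 3 called in FS, all higher, were the members GREM1, SMAD7 and SMAD9, against 5.78% of all genes. Of these 3, SMAD9 entered the test through FS, so its call is a description. The median log2 fold change of the 12 was 0.52, against 0.00 over all genes. Other known BMP targets there (ID1 to ID4, ATOH8, MSX1, BAMBI, RUNX2 and SMAD6) were not called.

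**Figure D4:**
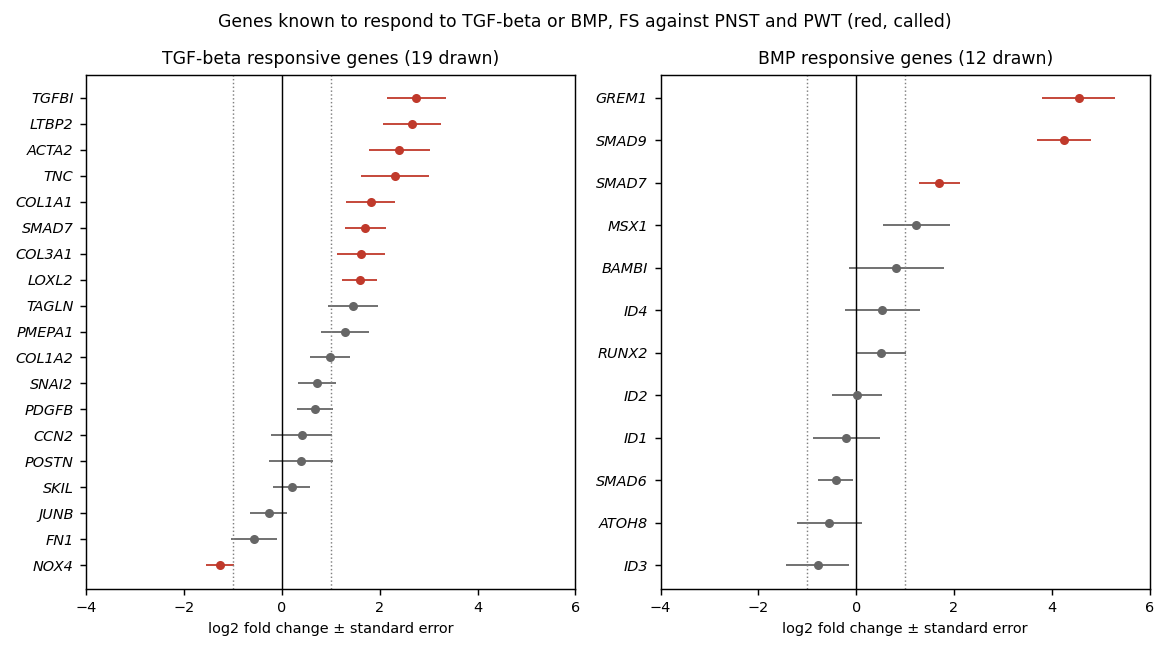
Log2 fold changes (x axis, with standard errors as bars) in FS against both other types of genes that TGF-beta (left, with 1 tested gene not drawn) or BMPs (right) are known to induce. TGFBI at 2.75 leads the 8 called higher on the left, and on the right GREM1, SMAD9 and SMAD7 are called while ID1 to ID4 are not.

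Markers of some cell types were called in FS against both other types, where 5.78% of all genes were called higher. Of 8 tested fibroblast markers, 3 were higher (COL1A1, COL3A1 and LUM), of which COL1A1 and COL3A1 are also in the list of TGF-beta responsive genes. Their summed level was 26747 CPM in S1-2, 99867 in S1-11, 26400.4 in S1-12 and 17937 in S2-6, against 9610.3 to 36693 CPM in the others, with COL1A1 the most abundant. Against PNST alone no fibroblast marker was called higher, against 4.15% of all genes. PDGFRA was lower there (log2 fold change -1.18, edgeR adjusted p = 0.0498), against 2.98% of all genes. Against PWT alone COL1A1, COL1A2 and COL3A1 were higher, against 6.15% of all genes, and none was lower, against 5.05%. Of 11 pericyte and smooth muscle markers, 3 were higher (ACTA2, CNN1 and MCAM), of which ACTA2 is also in the list of TGF-beta responsive genes. The sum of the 11 was 1298, 1949, 878 and 666 CPM in the 4 FS in the same order, against 408 to 917 CPM in the others, with PDGFRB the most abundant. Of 8 proliferation markers, 5 were higher (BUB1, CDK1, CENPF, MKI67 and TOP2A). Their sum was 157, 569, 186 and 991 CPM, against 85.8 to 209.9 CPM in the others, so S1-2 and S1-12 were within the range of the other types. Of 10 macrophage markers, 1 (C1QB) was higher, not far above the share of all genes, with a sum of 1504, 694, 193 and 346 CPM against 233 to 875 CPM. Of 3 skeletal muscle markers tested, MYH7 was higher, with 127 CPM in S1-11 and at most 3.68 CPM in the other FS. The skeletal muscle markers, led by ACTA1, summed to 1213 CPM in S1-11 and to 6.18 to 11.0 CPM in the other FS, with 4.49 to 481 CPM in the other types. The cartilage and bone markers, led by RUNX2, summed to 778 CPM in S1-11 and to 35.9 to 261 CPM in all other tumors. S1-11 is the tumor without which the calls of BMP7, INHBB, LTBP1, LTBP2, SMAD7 and TGFBR3 in FS against both other types were lost. Among the tested markers of endothelium (10), lymphocytes (4), adipocytes (6), Schwann cells (6) and cartilage and bone (3), 0 were called in FS by edgeR. The part of these markers in the results was not tested.

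Keratinocyte markers, led by DSP, summed to 967 to 1536 CPM in 5 tumors, namely S1-2 and S1-12 among FS, S1-4 and S1-5 among PNST, and S2-3 among PWT, and to 11.1 to 115 CPM in the other 11. Of these 10 markers, 0 were called in FS. Without those 5 tumors, a step chosen after seeing the data, the calls in FS against both other types were 5 (GDF11, GREM1, INHBB and LTBP2 higher, and TGFB2 lower), and SMAD9 and BMP7 no longer had the counts to be tested. The share of all genes called without those tumors is not given here. The 10 Schwann cell markers, led by PMP22, summed to 181 to 717 CPM in PNST (median 344), 162 to 225 CPM in FS and 174 to 360 CPM in PWT, so PNST overlapped both other types. PMP22, a myelin protein gene, was lower in FS than in PNST (log2 fold change -1.15, edgeR adjusted p = 0.0459). SOX10, a transcription factor of the Schwann lineage, was at 2.34 to 4.83 CPM in PNST and at 1.43 to 7.53 CPM in FS, and S100B was at 1.45 to 76.3 CPM in PNST, 0 to 9.98 CPM in FS and 1.62 to 8.36 CPM in PWT. RGS5, a pericyte marker, was at 57.0 to 249 CPM in PWT and at 30.8 to 179.9 CPM in PNST. The sum of the 11 pericyte and smooth muscle markers went the other way. It was 421 to 779 CPM in PWT (median 534), 408 to 917 CPM in PNST (median 782) and 666 to 1949 CPM in FS (median 1088). Of these markers, 0 were called in PWT against both other types.

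How reads were assigned limits some of these genes. Whether counting used strand was not given in the sources used here, and of the 12 called genes, 3 overlap another gene in RefSeq's table for the assembly UU_Cfam_GSD_1.0 (BMPR2, LTBP2 and TGFBR3), so their counts are uncertain to that extent. Exonic lengths were not used here, so a higher CPM of a gene within its role does not mean more transcripts.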

How the data were processed

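RNA of 16 formalin-fixed canine sarcomas was sequenced on an Ion Proton after removal of ribosomal RNA. The authors aligned reads with STAR to ROS-canfam-01 and deposited raw read counts per gene from htseq-count (HTSeq version not given). Runs of the same tumor were summed. Counts on genes were 22.9% to 30.6% of the reads listed per tumor, 41.8% to 66.7% lay outside genes and 9.11% to 31.6% aligned more than once. Genes that reached 10 counts in 4 or more tumors were tested with edgeR 4.0.16 in R 4.3.3 (TMM scaling, quasi-likelihood test, p-values adjusted by Benjamini-Hochberg over all genes tested), for each type against both others and for each pair of types. The tests were tested on simulated data. Replicate p-values measure the spread between tumors. Poisson intervals of 95% cover counting error only. Alternatives were DESeq2 1.42.0, other scaling factors, no filter, no fold threshold, histology groups, the prefix as a term, S1 tumors alone, S1-10 and S2-8 left out, S1-4 and S1-5 summed, each tumor left out, and, chosen after seeing the data, 5 tumors with keratinocyte markers left out. Genes given tumor by tumor were those called in any comparison and, in each role, the one with the highest mean CPM over all tumors. Levels of further genes were chosen after their values were seen. The members and lists were chosen with earlier results of these data known. Figures were drawn with Python matplotlib 3.10.9.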

Additional observations from a re-analysis of the deposited data

Results flagged for a closer look

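In 4 of 54 groups of tumors, over 18 genes, 1 tumor stood far from the rest of its group. Chance alone gives about 1 in 20 groups. BMP7 in the PWT S2-3 was 4.85 CPM, with the other PWT at 1.14 CPM or less. BMPR2 in the PNST S2-7 was 151 CPM, against 87.0 to 111 CPM in the other PNST. INHBA in the PNST S1-9 was 260.0 CPM, against 20.7 to 92.8 CPM. SMAD9 in the PNST S1-4 was 7.86 CPM, against 0.284 to 2.92 CPM, and S1-5, which may come from the same dog, was not set apart. The causes were not tested.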

How the results depend on the processing

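Of 697 log2 fold changes recomputed for 27 called results, 567 kept direction and call, 130 kept direction but not the call, and 0 reversed. The 10 calls of FS against both other types became 3 with histology groups and 5 without the 5 tumors with keratinocyte markers (chosen after seeing the data), and 5 (without S1-11) to 11 with each tumor left out. PNST against both other types gave 0 calls throughout. The 1 call of PWT became 5 with DESeq2, and 0 with no filter, histology groups, S1-10 and S2-8 left out, the prefix as a term, S1 tumors alone or the 5 tumors left out, and 0 (without S2-3, S2-4, S2-8 or S2-11) to 1 with each tumor left out. The 7 calls of FS against PNST became 0 with histology groups, 4 with S1 tumors alone, 2 without the 5 tumors and 10 with DESeq2, and 5 to 8 with each tumor left out. The 9 calls of FS against PWT became 0 with histology groups, 5 with S1-10 and S2-8 left out, 3 with the prefix as a term, 0 with S1 tumors alone and 11 with DESeq2, and 4 (without S1-11) to 11 with each tumor left out. PNST against PWT gave 0 calls, and 1 with DESeq2. Over all genes, DESeq2 called 1774 in FS against PNST, where edgeR called 640 higher and 459 lower. In FS against PWT it called 2453, where edgeR called 948 higher and 778 lower. For the alternatives other than DESeq2, the number of all genes called is not given here. With S1 tumors alone the lone PWT is assumed to vary like the other types. The cause was not tested. SMAD9 and BMP7 had too few counts to be tested without the 5 tumors. No paired analysis was possible because replicate numbers follow the order of the records and pair nothing.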
